A study of Arabidopsis thaliana with 3 samples.

Results

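The genes described here are the 45 nuclear loci of Arabidopsis thaliana that encode light-harvesting antenna proteins (LHCB and LHCA), subunits of photosystem I (PSA), subunits of photosystem II (PSB) and the small subunit of Rubisco (RBCS). They were taken from a fixed list of locus names among 37899 genes of chromosomes 1 to 5, of which 27444 are protein-coding. The data are ChIP-seq profiles, that is, DNA cross-linked to a protein, pulled down here through the FLAG tag and sequenced, from inflorescences of soil-grown plants under a long-day regime. BDH1 is a BCL-domain homolog protein that the series title connects with SWI/SNF, a complex that moves or removes nucleosomes. The group used here, BDH1-FLAG, consists of 2 samples with the genotype bdh1-1 BDH1-FLAG, that is, the bdh1-1 mutant carrying the tagged protein, and each sample has its own peak list. A wild-type sample immunoprecipitated with the same antibody was not analysed here. The promoter of the transgene, its copy number, the number of independent lines, and whether the samples came from separate plants are not given in the sources used here. Inflorescences mix stems, buds, flowers and non-green cells, and peak lists hold no expression values, so the tissue could not be checked against marker genes.

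In thylakoid membranes, light-harvesting proteins bind chlorophyll and pass excitation energy to the reaction centres. Photosystem II draws electrons from water and photosystem I passes them to ferredoxin, and Rubisco fixes carbon dioxide in the Calvin cycle. The core reaction-centre proteins and the large subunit of Rubisco are encoded in the plastid genome, whereas the proteins described here are made from nuclear genes and imported. Many of these nuclear genes are strongly transcribed in green tissue, under the control of light and of signals from the chloroplast.

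A gene met the rule when, in each of the 2 lists, at least 1 interval overlapped its span by 1 bp or more. By this rule 38 of the 45 genes (84.4%) had a BDH1-FLAG peak, beside a background of 45.4% of all protein-coding genes. Each list alone gave similar counts, 38 genes in replicate 1, beside 48.9% of protein-coding genes, and 39 in replicate 2, beside 49.8%. The genes are short, with lengths from 720 to 2154 bp, and among the 11984 protein-coding genes in that length range 37.7% had a peak. All 9 photosystem II genes, 11 of 12 photosystem I genes (91.7%), 16 of 20 antenna genes (80.0%) and 2 of 4 Rubisco genes (50%) met the rule. Within the antenna all 6 LHCA genes met it, against 10 of 14 LHCB genes (71.4%). No test was made, because the genes were chosen with earlier results of these data known, so these shares describe the genes and do not show that they differ from others.

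The 7 genes outside the rule fell almost entirely into families of similar copies. LHCB1.1 (AT1G29920), LHCB1.2 (AT1G29910), LHCB1.4 (AT2G34430) and LHCB2.2 (AT2G05070), which encode the major trimeric antenna of photosystem II, had no peak in either list, nor did the Rubisco small subunit genes RBCS1B (AT5G38430) and RBCS2B (AT5G38420). PSAD2 (AT1G03130), a photosystem I subunit gene of the ferredoxin-docking side, had a peak in replicate 2 alone. Grouping the LHCB1, LHCB2 and RBCS genes together, a split made after their values were seen, 6 of 12 (50%) had a peak in both lists, against 32 of the other 33 genes. By this rule the share of 50% is close to the 45.4% of all protein-coding genes, so it is low beside the other members and not beside the background. At a stricter threshold, given below, it lay below the background as well. Copies in these families are highly similar in their coding sequence, and reads were 50 bases long. How reads that match several copies were treated is not given in the sources used here, so peaks of these 12 genes are uncertain, and the part of read assignment in the difference from the other members was not tested.

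**Figure D1:**
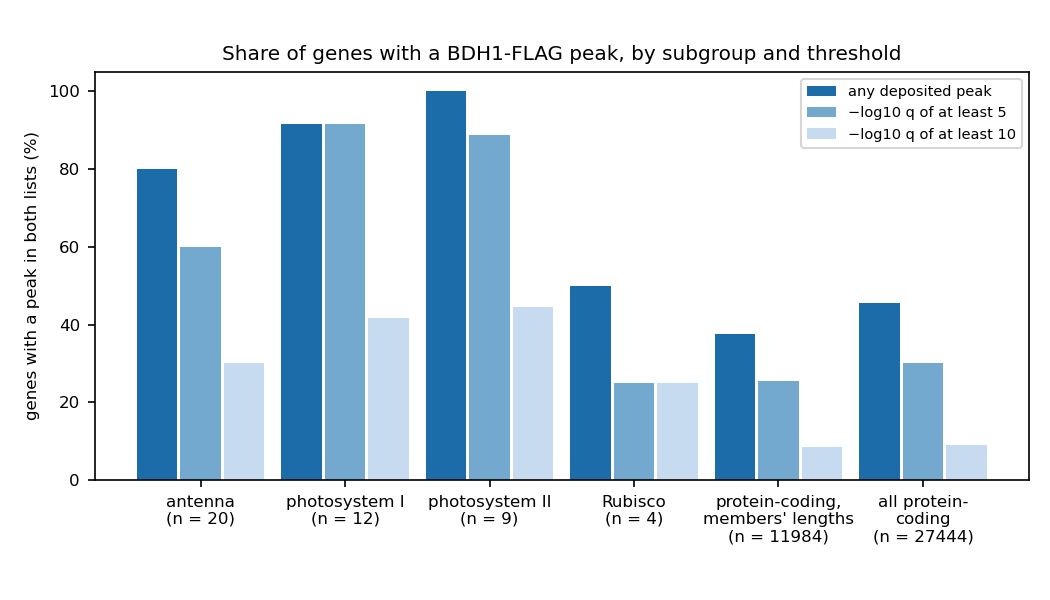
Percentage of genes with a BDH1-FLAG peak in both lists (vertical axis) in the 4 subgroups, in protein-coding genes of the same length range and in all protein-coding genes, for all deposited peaks and for peaks with a −log10 q of at least 5 or 10. Bars of photosystem I, photosystem II and antenna genes lie above both backgrounds at each threshold, while Rubisco has 4 genes and falls from 50% to 25.0%.

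At stricter thresholds photosystem I and photosystem II genes still had the highest shares, followed by the antenna and Rubisco. The −log10 q is the authors' measure of confidence in a peak, and a higher value means stronger evidence. With a minimum of 5 for the −log10 q in both lists, 32 of the 45 genes (71.1%) had a peak, beside 30.2% of protein-coding genes. The counts were 11 photosystem I, 8 photosystem II, 12 antenna and 1 Rubisco gene. Of the 12 LHCB1, LHCB2 and RBCS genes, 2 (16.7%) met this threshold, below the 30.2% and the 25.4% of genes in the same length range. With a minimum of 10, 16 genes (35.6%) met the rule in both lists, beside 9.12% of protein-coding genes and 8.49% of those in the same length range. These 16 were LHCB3, LHCB4.1, LHCB5, LHCB6, LHCA2 and LHCA3 of the antenna, PSAE1, PSAH1, PSAK, PSAL and PSAN of photosystem I, PSBO2, PSBP1, PSBR and PSBX of photosystem II, and RBCS1A.

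Peak height is given as the authors' fold enrichment, a linear ratio over a background that the sources used here do not describe, and the highest peak over each gene was taken. The median over the genes with a peak was 2.61 in replicate 1 and 2.70 in replicate 2, a mean of 2.66 ± 0.0586 (SD, n = 2 lists). Over all protein-coding genes with a peak the medians were 2.39 and 2.37, a mean of 2.38 ± 0.0168 (SD, n = 2 lists). The upper quartile of all peaks of a list, 2.62 in replicate 1 and 2.58 in replicate 2, was exceeded by 19 of 38 genes (50%) and by 23 of 39 genes (59.0%), against 33.1% and 33.2% of all protein-coding genes with a peak. The highest values among the 45 genes were 4.00 for PSAK in replicate 1 (rank 156 of 16653 peaks) and 4.03 for PSBP1 in replicate 2 (rank 36 of 16413 peaks).

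The ranges of the subgroups overlapped in height. Photosystem I genes had median fold enrichments of 2.90 in replicate 1 and 2.71 in replicate 2. Antenna genes had 2.65 and 2.50, and photosystem II genes had 2.49 and 2.70. The 2 Rubisco genes with a peak had medians of 2.42 and 2.18. Photosystem I thus had the highest median and Rubisco the lowest in both lists, while antenna and photosystem II changed order. In replicate 2 photosystem I was above photosystem II by little, 2.71 against 2.70. The LHCB1, LHCB2 and RBCS genes with a peak were lower, with medians of 1.99 and 2.07, against 2.73 and 2.72 in the other members. They were also below the 2.39 and 2.37 of all protein-coding genes with a peak.

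**Figure D2:**
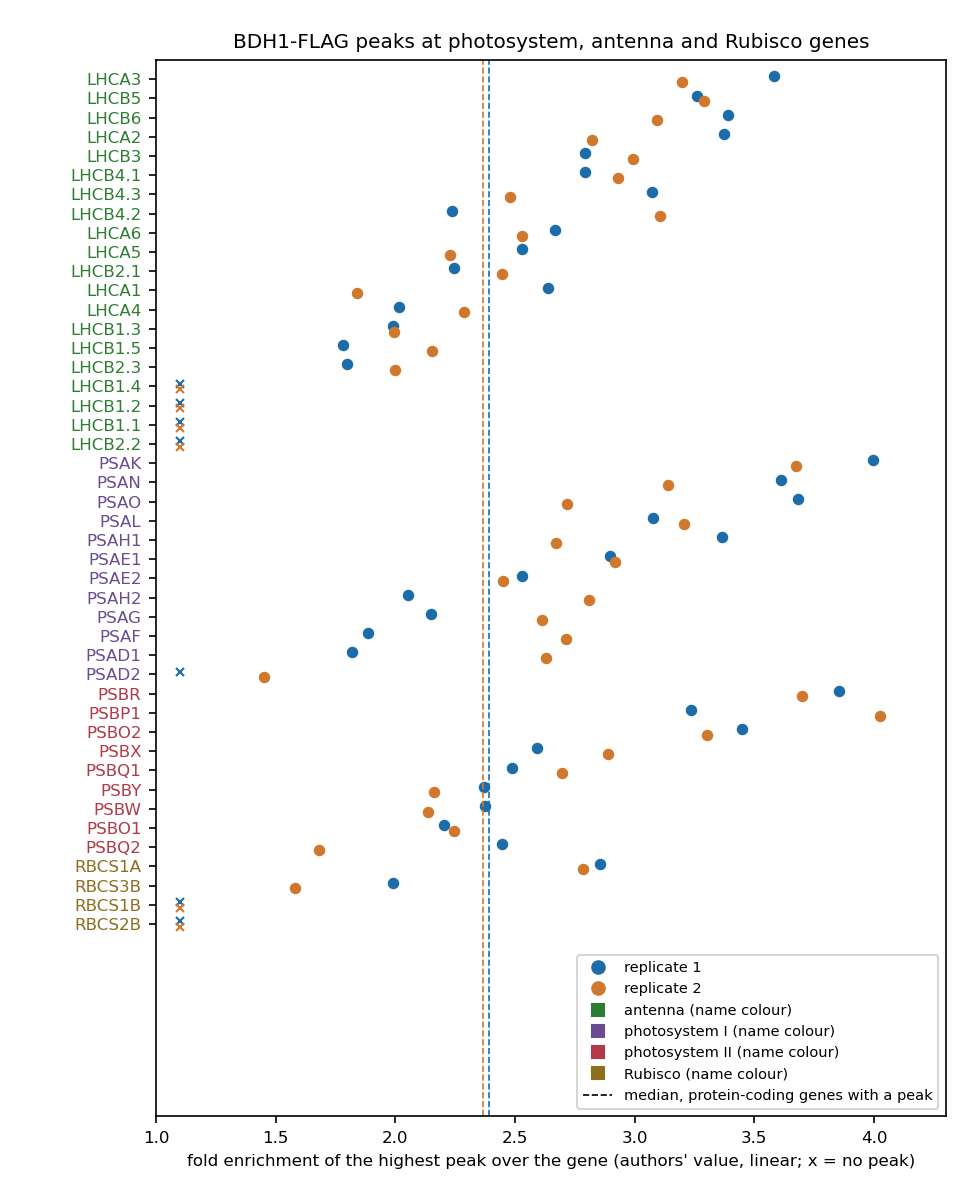
Fold enrichment of the highest peak over each gene (horizontal axis, linear ratio) in replicate 1 and replicate 2, with genes ordered by their mean within each subgroup and a cross for a gene without a peak in that list. Dashed lines mark the medians of protein-coding genes with a peak, 2.39 in replicate 1 and 2.37 in replicate 2; PSAK, PSBR and PSBP1 lie farthest to the right, and the LHCB1 genes lie to the left of the lines or have no peak.

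Among the genes of the photosystem II antenna, LHCB5, LHCB6 and LHCB3 had the highest peaks by the mean of both lists. LHCB5 (AT4G10340), a monomeric antenna protein next to the core, had a fold enrichment of 3.26 in replicate 1 (positions 6408016 to 6409256 of chromosome 4) and 3.29 in replicate 2 (positions 6407973 to 6409274). LHCB6 (AT1G15820), another monomeric antenna protein, had 3.39 in replicate 1, where a single interval covered 99.2% of the gene, and 3.09 in replicate 2, where 2 intervals covered 83.2%. LHCB3 (AT5G54270), a trimer component, had 2.79 and 2.99. All 3 genes ranked within the upper quartile of both lists.

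The LHCB4 genes encode a monomeric antenna protein that joins the trimers to the core, and all 3 copies had a peak in both lists. LHCB4.1 (AT5G01530) had fold enrichments of 2.79 and 2.93, from intervals covering 91.6% and 95.1% of the gene. LHCB4.2 (AT3G08940) had 2.24 in replicate 1, at rank 8529 of 16653 peaks, but 3.11 in replicate 2, at rank 972 of 16413 peaks. LHCB4.3 (AT2G40100) went the other way, with 3.07 and 2.48. The order of the 3 copies thus differed between the lists, and none stood apart from the others in both.

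The LHCB1 genes lie in a cluster of 3 on chromosome 1 and a pair on chromosome 2. In the cluster, LHCB1.2 and LHCB1.1 had no peak, while LHCB1.3 (AT1G29930) at one edge had a fold enrichment of 1.99 in both lists. Its highest interval, at positions 10478870 to 10479231 in replicate 1 and 10478820 to 10479195 in replicate 2, also reached the neighbouring gene NRPA2, and its summit lay inside both genes, so that peak cannot be assigned to LHCB1.3 rather than to NRPA2. A second interval inside LHCB1.3, which reached no other gene, was called in replicate 2 alone, with a fold enrichment of 1.63. In the pair, LHCB1.4 had no peak and LHCB1.5 (AT2G34420) had fold enrichments of 1.78 and 2.15. The highest peaks of LHCB1.5 lay at opposite ends of the gene in the 2 lists, with summits 798 bp apart. Replicate 1 also had a lower interval, with a fold enrichment of 1.67, whose summit lay 8 bp from that of replicate 2, and the intervals at that end reached the protein-coding gene RWA3 in both lists. All of these intervals overlapped the long non-coding RNA gene AT2G08665.

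Of the LHCB2 genes, LHCB2.1 (AT2G05100) had fold enrichments of 2.25 and 2.44 and LHCB2.3 (AT3G27690) had 1.80 and 2.00, the latter at ranks 15193 and 11817. Their intervals were narrow, covering 27.0% and 15.4% of LHCB2.1 and 14.1% and 18.1% of LHCB2.3. LHCB2.2, on the same chromosome as LHCB2.1 with 5 genes between them, had no peak. LHCB2.3 was the antenna gene with the lowest mean fold enrichment among those with a peak in both lists, followed by LHCB1.5.

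The LHCA genes form the antenna of photosystem I. LHCA3 (AT1G61520) had the highest peak of all antenna genes in replicate 1, with a fold enrichment of 3.58 (positions 22700092 to 22700926 of chromosome 1), and 3.20 in replicate 2 (positions 22700083 to 22700896). LHCA2 (AT3G61470) had 3.37 and 2.82. LHCA5 (AT1G45474) and LHCA6 (AT1G19150), minor proteins known for joining photosystem I to the NADH dehydrogenase-like complex, had 2.53 and 2.23, and 2.67 and 2.53. LHCA1 (AT3G54890) had 2.64 in replicate 1 but 1.84 in replicate 2, and LHCA4 (AT3G47470) had 2.01 and 2.29. LHCA1 and LHCA4, which pair as a dimer in the antenna, thus had the lowest mean peaks of the 6 genes.

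In photosystem I, PSAK (AT1G30380) had the highest peak of all 45 genes by the mean of both lists. PSAK, a membrane subunit at the antenna-binding side, had a fold enrichment of 4.00 in replicate 1 (positions 10722156 to 10723385 of chromosome 1, rank 156) and 3.68 in replicate 2 (positions 10722169 to 10723435, rank 140). The interval covered the whole gene in both lists. PSAN (AT5G64040), a lumenal subunit that helps plastocyanin bind, had 3.61 and 3.14. PSAO (AT1G08380), a subunit on the side where mobile antenna docks, had 3.68 and 2.72. PSAL (AT4G12800), a neighbour of PSAO in the complex, had 3.08 and 3.20. These 4 genes lay above the upper quartile in both lists.

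Some photosystem I genes were low in replicate 1 and higher in replicate 2. PSAF (AT1G31330), the plastocyanin-docking subunit, had 1.89 in replicate 1 and 2.71 in replicate 2, at ranks 14112 and 2956. PSAG (AT1G55670), a membrane subunit next to the antenna, had 2.15 and 2.61. PSAD1 (AT4G02770), of the ferredoxin-docking side, had 1.82 and 2.63, although its intervals covered 73.2% and 78.6% of the gene. Each of these 3 genes, and also PSAH2 (described below), was below the median of the list in replicate 1 and above the upper quartile in replicate 2. PSAD2 had no peak in replicate 1, and in replicate 2 its fold enrichment was 1.45 from an interval that covered 5.13% of the gene. That interval had a −log10 q of 1.34, close to the lowest value in the list of 1.31, and it also overlapped the neighbouring gene RAB28.

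Among the other duplicated photosystem I genes, PSAE1 (AT4G28750) ranked above PSAE2 (AT2G20260) in both lists. PSAE1, of the stromal side, had 2.90 and 2.92, and PSAE2 had 2.53 and 2.45. The PSAH copies, which take part in docking mobile antenna, changed order: PSAH1 (AT3G16140) had 3.36 in replicate 1 and 2.67 in replicate 2, whereas PSAH2 (AT1G52230) had 2.05 and 2.81.

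In photosystem II, PSBR (AT1G79040) had the highest mean peak. PSBR, a small protein needed for stable assembly of the oxygen-evolving complex, had a fold enrichment of 3.85 in replicate 1 (positions 29735920 to 29737176 of chromosome 1, rank 237) and 3.70 in replicate 2 (positions 29735920 to 29737198, rank 132). The interval covered the whole gene and reached its neighbour RECA1. PSBP1 (AT1G06680), an extrinsic protein of the oxygen-evolving complex, had 3.23 in replicate 1 and 4.03 in replicate 2, where it ranked 36 of 16413, the best rank among the 45 genes. A second, lower interval inside PSBP1 was called in both lists, with fold enrichments of 2.31 and 2.23.

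PSBO1 (AT5G66570) and PSBO2 (AT3G50820) encode the manganese-stabilising protein of the same complex, and their peaks differed in kind. PSBO1 had 3 intervals in replicate 1 and 2 in replicate 2, the highest with fold enrichments of 2.203 and 2.244. PSBO2 was overlapped by one higher interval, of 3.45 and 3.30, but the summit lay 601 bp outside the gene in replicate 1 and 715 bp outside in replicate 2. That interval also reached the snoRNA genes AT3G08165 and AT3G50825 in both lists and the protein-coding gene COR413-PM2 in replicate 2, and no annotated gene lay at its summit. PSBO2 was the single member whose highest summit fell outside the gene in either list, so its high value, and its place among the 16 genes above, cannot be given to PSBO2 itself. When the summit had to lie inside the gene in both lists, 37 of the 45 genes still met the rule, beside 42.0% of protein-coding genes.

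The PSBQ genes, which encode the third extrinsic protein, both had peaks. PSBQ1 (AT4G21280) had 2.49 and 2.70, and PSBQ2 (AT4G05180) had 2.45 and 1.68, so that PSBQ1 was higher in each list but by little in replicate 1. The small membrane subunit genes PSBW (AT2G30570), PSBX (AT2G06520) and PSBY (AT1G67740) had fold enrichments of 2.38 and 2.14, 2.59 and 2.89, and 2.37 and 2.16. PSBX is the shortest of the 45 genes, and its intervals extended into RPA1A in both lists.

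Of the Rubisco small subunit genes, RBCS1A (AT1G67090), the copy on chromosome 1, stood above the others. RBCS1A had fold enrichments of 2.86 in replicate 1 (positions 25047918 to 25049341) and 2.79 in replicate 2 (positions 25047959 to 25049320), with 78.4% and 77.0% of the gene covered. RBCS3B (AT5G38410), at the edge of the cluster on chromosome 5, had 1.99 and 1.58, at ranks 12440 and 16196. Its highest summits were 928 bp apart in the 2 lists, but replicate 1 had a second interval, with a fold enrichment of 1.86, whose summit lay 41 bp from that of replicate 2. RBCS2B and RBCS1B, in the same cluster, had no peak. The difference between RBCS1A and the cluster stands beside the limit on similar copies given above.

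**Figure D3:**
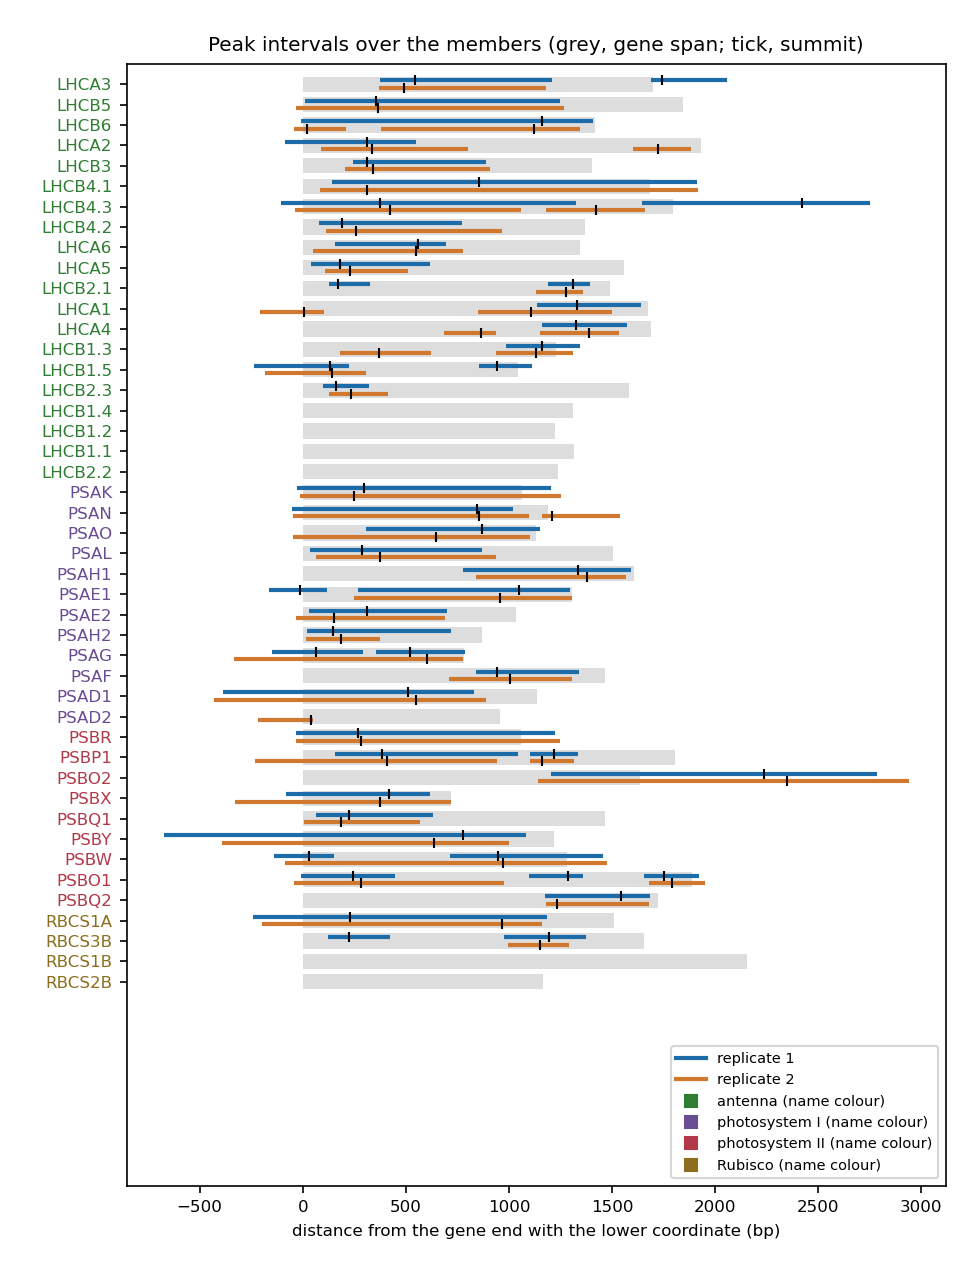
Peak intervals of replicate 1 and replicate 2 over each of the 45 genes, drawn as distance in bp from the gene end with the lower coordinate; grey bars are gene spans and ticks are summits. PSAK and PSBR are covered whole in both lists, the summits of PSBO2 lie outside the gene, and LHCB1.1, LHCB1.2, LHCB1.4, LHCB2.2, RBCS1B and RBCS2B carry no interval.

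The peaks covered much of these short genes. The median share of a gene covered by peaks was 53.1% in replicate 1 and 59.8% in replicate 2 among the genes with a peak. It was 20.0% and 20.3% over all protein-coding genes with a peak, and 32.2% and 32.5% over those in the same length range. The highest peaks of the 45 genes had median widths of 702 and 854 bp, against 540 and 557 bp in that length range. At least 20% of the gene was covered in both lists in 34 of the 45 genes, beside 20.7% of all protein-coding genes. Among the 4 subgroups coverage was greatest in photosystem I, with medians of 73.2% and 72.7%, and lower in the antenna, with 39.8% and 50.9%. The photosystem I genes were also shorter, with a median of 1133 bp against 1455 bp in the antenna, and the share covered depends on gene length.

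Summits lay mostly inside the genes. The median distance from a summit to the nearest end of the gene, counted for summits inside or within 500 bp of a gene, was 258 bp inside in replicate 1 and 300.5 bp inside in replicate 2 (mean 279 ± 30.1 bp, SD over n = 2 lists). Over all protein-coding genes it was 214 and 212 bp. Of the summits near the 45 genes, 45 of 52 (86.5%) in replicate 1 and 46 of 52 (88.5%) in replicate 2 lay inside the gene, against 72.8% and 72.9% over all protein-coding genes. The gene table gives no strand, so whether a summit was near the start or the end of a gene is not known.

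Summits within 500 bp of each of the 2 ends of a gene, inside or outside it, were counted. They were found in 8 of the 45 genes (17.8%) in replicate 1 and 6 (13.3%) in replicate 2. The shares were 7.56% and 7.85% of all protein-coding genes, and 6.36% and 6.41% of those in the same length range. More of the 45 genes than of other genes had any peak, and these shares do not compare genes with a peak alone. PSBO1 was the 1 member that met this description in both lists. That is 2.22% of the 45 genes, beside 4.84% of all protein-coding genes and 3.65% of those in the same length range.

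Intervals of the 2 lists overlapped each other at all 38 genes, and at 12379 of the 12466 protein-coding genes with a peak in both lists. In 36 of 38 genes the highest peaks of the 2 lists overlapped each other, and in the exceptions, LHCB1.5 and RBCS3B, another interval of replicate 1 overlapped the highest of replicate 2. The median distance between the summits of the highest peaks was 47.5 bp, and in 28 genes it was 100 bp or less. It was 733 bp in RBCS1A and 542 bp in LHCB4.1, although their highest peaks overlapped. Overlap of the highest peaks and distances between their summits were not computed for other genes. Across the 38 genes, fold enrichment in the 2 lists had a Pearson r of 0.69 and a Spearman rho of 0.70, beside 0.67 and 0.63 across 12466 protein-coding genes. These are descriptions across genes of the same 2 samples, and genes are not independent replicates.

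Other genes of photosynthesis were taken from 5 lists of 53 genes, and 44 of them (83.0%) had a peak in both lists, beside the same 45.4% of protein-coding genes. In the list of nuclear genes for electron transport and ATP synthase, 11 of 11 had a peak. The highest there by the mean of both lists was AT2G26500, which the gene table leaves unnamed, with fold enrichments of 3.05 and 3.60. PETE1, which encodes plastocyanin, had 3.35 and 3.26, above AT2G26500 in replicate 1 and below it in replicate 2.

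In chlorophyll synthesis, 14 of 15 genes (93.3%) had a peak in both lists, beside 45.4% of all protein-coding genes. CHLH, a subunit of magnesium chelatase, was highest by the mean with 3.03 and 2.90. HEMA1, which encodes glutamyl-tRNA reductase at the entry to the pathway, had 3.03 and 2.83. PORA, the protochlorophyllide reductase of dark-grown seedlings, was the exception without a peak, whereas its relatives PORB and PORC had 2.69 and 2.41, and 2.81 and 2.79.

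In the Calvin cycle outside Rubisco, 11 of 14 genes (78.6%) had a peak in both lists, beside 45.4% of all protein-coding genes. The genes of this list were longer, with a median of 2469.5 bp against 2078 bp, and a longer gene is more easily overlapped. CP12-2, a small regulator protein of the cycle, was highest with 3.32 and 3.20. CFBP1, a chloroplast fructose bisphosphatase, had no peak, and GAPB and FBA2 had a peak in replicate 2 alone. RCA, which encodes Rubisco activase, had 2.36 and 2.62. The median fold enrichment of this list, 2.36 in replicate 1 and 2.197 in replicate 2, lay below the 2.39 and 2.37 of all protein-coding genes with a peak.

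Among 7 genes for regulators of photosynthesis genes, 4 met the rule (57.1%), beside 45.4% of all protein-coding genes. With the summit inside the gene it was 3 of 7 (42.9%), beside 42.0%, so this list lay near the background. HY5, a transcription factor of light signalling, was highest with 2.70 and 2.74. GNC, a GATA factor of greening, had no peak, and GLK1 and GNL had one in replicate 1 alone, at 1.72 and 2.06. Of 6 genes for photoprotection and antenna relatives, 4 had a peak in both lists (66.7%), beside the same 45.4%. LHCB7 had 2.48 and 1.97 and OHP1, a one-helix protein, was highest by the mean with 2.29 and 2.38. ELIP2 had no peak, and PSBS, which is needed for the rapid quenching of excess light energy, had one in replicate 2 alone, at 2.19.

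**Figure D4:**
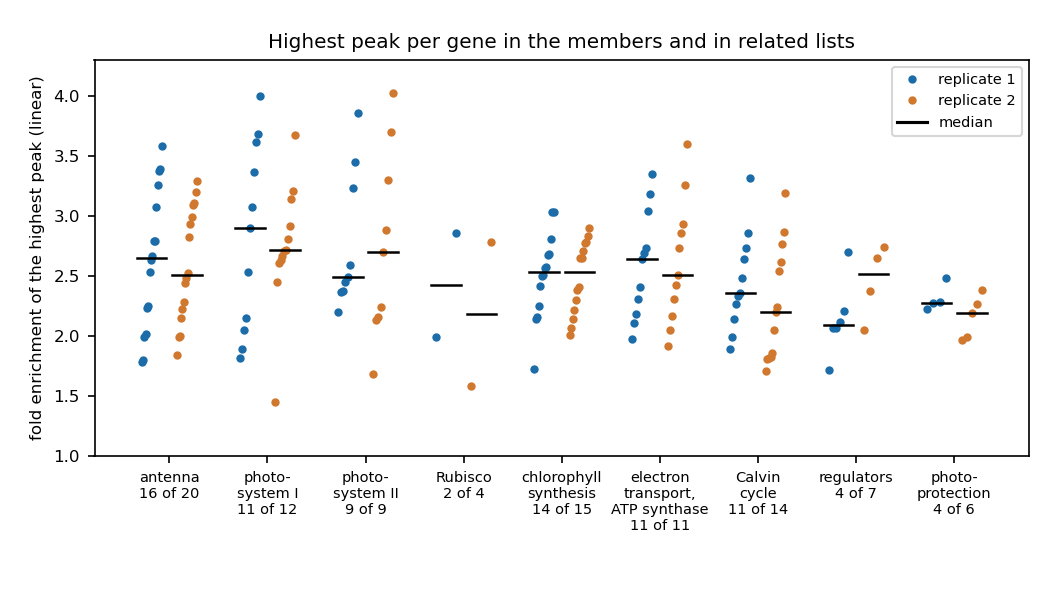
Fold enrichment of the highest peak per gene (vertical axis, linear ratio) in the 4 subgroups and in 5 lists of other photosynthesis genes, for replicate 1 and replicate 2, with medians as black lines and the number of genes with a peak in both lists under each name. The electron transport list has a peak at 11 of 11 genes, and the regulators at 4 of 7.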

How the data were processed

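Per the submitters' processing notes, Bowtie2 2.5.2, SAMtools, bedtools 2.31.1 and MACS2 2.2.9.1 were used with the build TAIR10; their settings and the control library are not given in the sources used here. The authors deposited a separate narrowPeak list for each BDH1-FLAG replicate, with no pooling. Each line holds an interval, a summit (an offset in bp, of the unit other), a fold enrichment (a linear ratio deposited by the authors), a −log10 p, a −log10 q and a score; the deposited score and −log10 p were not used. The lists hold 16653 and 16413 peaks on 5 chromosomes, all with a −log10 q of at least 1.32 and 1.31. Read depth is unknown, so no counting error is given.

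Intervals were set against gene spans of a RefSeq table of assembly TAIR10.1, whose coordinates are not printed and which has no strand. All 45 members and 53 related genes matched by locus. The planned distance from gene starts was therefore replaced by the distance to the nearest gene end, as planned for that case; the planned promoter motifs and protein identities were not computed, as no sequences were used here. Overlaps were computed with Python 3.11.15 and pandas 2.3.3, and the rules were tested on simulated peaks. No test of significance was made. Fold enrichment and −log10 q describe and rank peaks within their own list. The members and lists were chosen with earlier results of these data known. All members were counted; values were given for the 3 highest and 2 lowest genes of each subgroup by mean fold enrichment, genes with a peak in 1 list, and copies of one family, and further members were named after their values were seen. Of the related lists, the highest gene and those without a peak were named; HEMA1, PETE1, PORB, PORC, RCA and LHCB7 were added after their values were seen.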

Additional observations from a re-analysis of the deposited data

How the results depend on the processing

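The count of 38 genes ran from 32 to 39 over a −log10 q of at least 5, summits inside the gene, 20% of the gene covered, 500 bp flanks, intervals that overlap each other, and either list alone (38 and 39). Leaving out the LHCB1, LHCB2 and RBCS genes, an alternative chosen after seeing the data, gave 32. With a minimum −log10 q of 10 it was 16, with 6 antenna, 5 photosystem I, 4 photosystem II and 1 Rubisco gene, as fewer peaks remained. Rubisco also fell to 1 gene with a minimum of 5 and with 20% of the gene covered. In the related lists, a −log10 q of at least 10 left 5 of 15 genes of chlorophyll synthesis and 5 of 11 of electron transport and ATP synthase. It left 2 of 14 of the Calvin cycle, 1 of 7 regulators and 0 of 6 of photoprotection, beside 9.12% of protein-coding genes. A −log10 q of at least 5 left 6 of the Calvin cycle (42.9%), 1 regulator (14.3%) and 2 of photoprotection (33.3%), beside 30.2% of protein-coding genes. At that threshold the regulators thus lay below the background and photoprotection near it. With 20% coverage, 8 of chlorophyll synthesis (53.3%) and 6 of the Calvin cycle (42.9%) were left, beside 20.7% of protein-coding genes. The background share of 45.4% became 37.7% in the members' length range and 36.3% over all nuclear genes. With 500 bp flanks, where the members stayed at 38, the background rose to 52.1% of protein-coding genes and 44.7% in the members' length range. The median fold enrichment ran from 2.61 to 2.70 and the median summit distance from 258 to 305 bp. No 2 members shared a peak, so counting shared peaks singly gave 38. No paired analysis was possible because the 2 lists belong to 1 group. Without read depth or the wild-type sample, the background of the antibody at these genes was not measured here.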

Other observations

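Several member peaks were shared with neighbouring genes. The highest peak reached another annotated gene in 14 of 38 genes in replicate 1 and in 14 of 39 in replicate 2, and another protein-coding gene in 12 and 13 of them. The same share over all protein-coding genes was not computed, so whether it is usual for peaks of these lists is not known. PSBR and RECA1, a plastid DNA recombination gene, were overlapped by the same interval in both lists. So were PSBX and RPA1A, PSBW and LGT5, PSBY and KCR1, PSAN and AT5G64030, and PSAD1 and AT4G02760. The PSAH copies each lie beside a ROPGEF gene, PSAH1 beside ROPGEF13 and PSAH2 beside ROPGEF11, and in replicate 1 the interval of each copy reached that neighbour. The interval of PSAH1 there had a fold enrichment of 3.36 and that of PSAH2 had 2.05; in replicate 2 neither interval reached the neighbour. Annotated genes that overlap a member lay under some summits too: the highest summits of PSAE1 lay inside AT4G28755 as well in both lists, and the highest summits of PSAG inside AT1G55673.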
